A study of Mus musculus with 36 samples.

Results

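Glutathione is supplied, recycled and used through 9 of the 10 genes described here, and the last codes for a small metal-binding protein that is often read beside them. They are the cystine importer gene Slc7a11, the synthesis genes Gclc, Gclm and Gss, the reductase gene Gsr, the peroxidase gene Gpx4, the microsomal glutathione transferase genes Mgst1, Mgst2 and Mgst3, and the metallothionein gene Mt2. The genes were chosen by name, in a list drawn up with earlier results on these arrays known, and so selected on measured values, among them the Mgst2 levels in germ cells of both sexes. The Mgst2 values that entered that choice are given as description, with no test. Each gene was read from the probe set with exactly 1 gene symbol and the highest mean over all 36 arrays, so that mean chose the probe set and is no result. The 10 genes are among 19938 named genes, and all 10 passed the filter on low values that left 17571 genes for testing. Slc7a11 passed that filter only through XX supporting cells, the group in which it was high. Outside that group fewer than 3 of the arrays used lay above their own 25th percentile, and the filter asked for at least 3. Gpx4 had 2 probe sets with a single symbol and each other gene had 1.

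The arrays (Affymetrix mouse Gene 1.0 ST) measured RNA of cells sorted from fetal mouse gonads, 3 arrays for each combination of cell type (germ or supporting), sex (XX or XY) and stage (TS13, TS24 or TS34), which the labels set before, during and after sexual differentiation. Gonads were pooled by sex before the sort, and the labels do not say whether the 3 arrays of a group came from separate pools, so p-values measure the spread between arrays, which may be technical. Germ cells of both sexes and all stages carried an Oct4 reporter and were progeny of C57BL/6NJ on a mixed background. XX supporting cells at all stages and XY supporting cells at TS13 came from the transgenic line Tg(Sry-EGFP)92Ei on a CD-1 background, in which a fluorescent protein is driven by Sry sequences, whereas XY supporting cells at TS24 and TS34 came from Tg(Sox9-cre/ERT2)1Msan/J on a C57BL/6 background, with a Cre driven by Sox9 sequences. Germ and supporting cells therefore always differed in mouse line, and so did XX and XY supporting cells at TS24 and TS34. Cell type and line cannot be told apart in any difference between germ and supporting cells. Sex and line cannot be told apart between XX and XY supporting cells at TS24 and TS34, nor stage and line in the XY supporting step from TS13 to TS24. At TS13 the XX and XY supporting cells shared 1 line, as XX and XY germ cells did at every stage.

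The sort was checked with 3 marker genes. On the 17 germ cell arrays used, Pou5f1 lay between 9.53 and 12.02 and Ddx4 between 10.48 and 12.09, against 5.06 to 6.18 and 4.82 to 6.75 on the 18 supporting cell arrays, and Wt1, a supporting cell gene, lay between 7.18 and 8.19 in germ cells and between 10.75 and 11.69 in supporting cells. All values are the deposited log2 expression values, on which a difference of 1 is a doubling. The library labelled XX germ cells at TS24, replicate 3, went against its label, with Pou5f1 at 5.07, Ddx4 at 5.04 and Wt1 at 11.19, and was left out, so that this group has 2 arrays. Where adding it changed a call, the value or the number of settings that changed the call is given.

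Cystine enters cells through the xCT transporter, of which Slc7a11 codes for the light chain, and is reduced to cysteine inside the cell. Both subunits of glutamate-cysteine ligase, catalytic (Gclc) and modifier (Gclm), join cysteine to glutamate in the limiting step, and glutathione synthetase (Gss) adds glycine. Glutathione reductase (Gsr) restores the oxidised form, Gpx4 uses glutathione to reduce lipid peroxides in membranes, and the Mgst enzymes are membrane proteins that attach glutathione to reactive compounds or to a leukotriene precursor. In the fetal gonad, supporting cells become Sertoli cells in XY and pregranulosa cells in XX animals, while XX germ cells enter meiosis and XY germ cells stop dividing.

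The 250 bases before the transcription start are shown for 4 genes with large differences between groups: Slc7a11, which was high in 1 sex of 1 cell type, the related Mgst1 and Mgst2, which were high in different cell types, and Mt2, which fell over time in germ cells. They were read from RefSeq windows of the assembly GRCm38.p6, 5′ to 3′ along the gene, and 8 of the 10 genes had such a window. Gclc and Gsr are named only. Capitals mark matches, on either strand, to 3 motifs: TGACNNNGC, the core of the antioxidant response element bound by NRF2, TGATGNAA, the composite element bound by ATF4 with C/EBP factors, and TGCACNC or TGCGCNC, the metal response element bound by MTF1.
Slc7a11 (chr3:50443614-50443863, minus strand): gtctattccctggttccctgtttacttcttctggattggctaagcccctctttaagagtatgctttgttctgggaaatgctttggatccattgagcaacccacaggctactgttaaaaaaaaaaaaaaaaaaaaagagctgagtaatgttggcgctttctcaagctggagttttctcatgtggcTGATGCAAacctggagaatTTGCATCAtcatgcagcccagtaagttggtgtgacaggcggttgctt
Mgst1 (chr6:138140277-138140526, plus strand): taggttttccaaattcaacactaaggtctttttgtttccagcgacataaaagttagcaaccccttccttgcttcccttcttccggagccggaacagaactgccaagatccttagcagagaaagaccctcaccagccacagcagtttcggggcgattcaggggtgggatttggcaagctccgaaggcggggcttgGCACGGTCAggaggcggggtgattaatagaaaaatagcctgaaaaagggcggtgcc
Mgst2 (chr3:51660929-51661178, plus strand): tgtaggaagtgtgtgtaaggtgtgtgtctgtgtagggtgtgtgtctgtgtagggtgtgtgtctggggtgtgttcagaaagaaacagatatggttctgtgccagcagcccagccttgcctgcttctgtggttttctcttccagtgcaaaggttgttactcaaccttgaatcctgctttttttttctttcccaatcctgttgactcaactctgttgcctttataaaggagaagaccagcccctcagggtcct
Mt2 (chr8:94172368-94172617, plus strand): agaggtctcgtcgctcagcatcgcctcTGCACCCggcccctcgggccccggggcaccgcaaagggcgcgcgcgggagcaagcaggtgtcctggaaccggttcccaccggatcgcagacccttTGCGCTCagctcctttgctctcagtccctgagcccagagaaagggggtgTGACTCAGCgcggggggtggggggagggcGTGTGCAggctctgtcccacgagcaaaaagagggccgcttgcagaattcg

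The Slc7a11 window held 2 matches to the composite element, at 66 to 59 bases before the start on the strand of the gene and at 47 to 40 bases on the opposite strand. Of 32851 windows of this length, 3.45% held at least 1 match and 13 windows (0.0396%) held 2 or more. The Mgst1 window, at the first of its 2 start sites, held 1 antioxidant response core 56 to 48 bases before the start, on the opposite strand, a motif found in 10.2% of windows. In Mt2 that core lay at 79 to 71 bases, and 3 metal response matches lay at 223 to 217, 128 to 122 and 50 to 44 bases before the start, the last on the opposite strand. At least 1 metal response match was found in 21.4% of windows and 2 or more in 5.17%. The Mgst2 window held none of the motifs. The Gclm window held an antioxidant response core at 134 to 126 bases that overlapped a metal response match at 138 to 132, and another metal response match at 72 to 66. These are matches of letters and no evidence of binding.

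**Figure D1:**
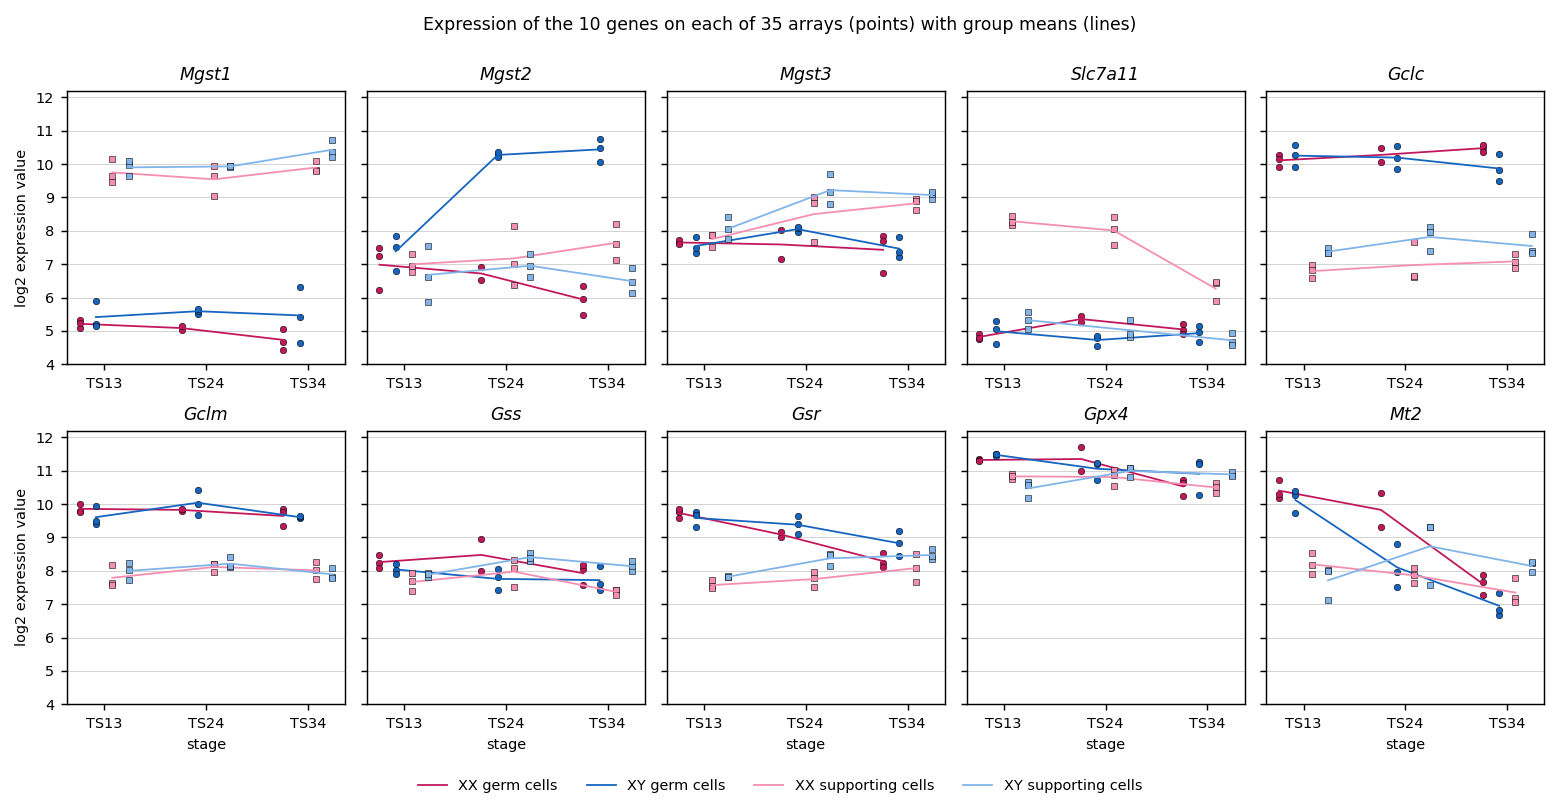
Log2 expression value (vertical axis) of each gene on each of the 35 arrays used, by stage (horizontal axis). Points are single arrays and lines join group means. The reader should see Mgst1 between 9.03 and 10.73 in all supporting cells, Mgst2 at 10.07 to 10.76 only in XY germ cells at TS24 and TS34, Slc7a11 at 7.56 to 8.43 only in XX supporting cells at TS13 and TS24, and Mt2 going down in germ cells.

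Slc7a11, the cystine importer, was measured well above the lowest values only in XX supporting cells at TS13 and TS24. Its values in XX supporting cells were 8.16, 8.27 and 8.43 at TS13, 8.06, 8.41 and 7.56 at TS24 and 5.90, 6.44 and 6.46 at TS34. The TS34 values lay below the medians of their own arrays (6.656, 6.493 and 6.6). The 9 XY supporting cell arrays lay between 4.57 and 5.57 (median 4.93) and the 17 germ cell arrays between 4.54 and 5.44 (median 4.91). Every XX supporting cell array thus lay above every other array, and the other groups were close to the 25th percentiles of the arrays (5.17 to 5.60), where differences are compressed and no order between them was measured.

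The difference in Slc7a11 between XY and XX supporting cells was -2.96 ± 0.21 (SE) at TS13, where both sexes came from the same line, 7.81-fold lower in XY (adjusted p = 8.14e-16, limma, Benjamini-Hochberg over all genes tested). The difference was -2.99 ± 0.21 at TS24 (adjusted p = 1.13e-16) and -1.55 ± 0.21 at TS34 (adjusted p = 6.33e-08), both across lines. Within XX supporting cells, all from 1 line, the level did not pass the test between TS13 and TS24 (-0.27 ± 0.21, adjusted p = 0.763) and fell by 1.74 ± 0.21 from TS24 to TS34 (adjusted p = 2.52e-07). The sex difference at TS34 was smaller than at TS13 by 1.41 ± 0.30 (adjusted p = 9.12e-04, test of the difference itself). In germ cells, XY minus XX gave 0.17 ± 0.21 at TS13, -0.63 ± 0.23 at TS24 (adjusted p = 0.162) and -0.11 ± 0.21 at TS34, and none passed the test in the fit used. With the left-out library added, the TS24 difference was -0.75 (adjusted p = 0.0358). All these adjusted p-values rank a gene against all genes tested and are no independent evidence, since the list was drawn up with results known. Slc7a11 also passed the filter only through XX supporting cells, so its differences from that group rest on the values that let it in.

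Other genes of cystine and amino acid supply were compared between XY and XX supporting cells at TS13, where 3.78% of all genes were called. Slc3a2, which codes for the heavy chain of the same transporter, differed by 0.35 ± 0.23 (adjusted p = 0.759) between XY and XX supporting cells. Among 9 genes of the amino acid response (Atf4 and its targets), 1 was higher and 1 lower in XY at TS13, with a median difference of 0.04 against -0.07 over all genes. Psat1, an enzyme of serine synthesis, was higher by 1.26 ± 0.26 (adjusted p = 7.12e-04), and Asns, asparagine synthetase, differed by -1.14 ± 0.25 (adjusted p = 0.00226). Atf4 itself differed by 0.14 ± 0.22 (adjusted p = 1), and Chac1 by -0.03 ± 0.19. Asns was also lower in XY at TS24 (-1.43 ± 0.25, adjusted p = 1.63e-05), while at TS34 its difference was -0.06 ± 0.25. Of the same 9 genes, 3 were higher and 1 lower in XY at TS24, where 15.3% of all genes were called. At TS34 2 were higher and 0 lower (14.0% of all genes called). Psat1 was higher by 0.95 and 1.50 at these stages and Phgdh by 1.12 and 1.09.

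The 3 genes whose 12 group means followed Slc7a11 most closely (Pearson's r, a description over 12 group means that share their arrays) were Vmn1r35, a vomeronasal receptor gene (r = 0.983), Adm, which codes for adrenomedullin (r = 0.970), and Cd36, a fatty acid transporter gene (r = 0.970). Adm had group means of 8.38, 8.63 and 7.13 in XX supporting cells from TS13 to TS34 and 6.19, 5.46 and 5.62 in XY supporting cells. Cd36 had 7.02, 6.72 and 5.57 in XX and 5.28, 5.07 and 4.91 in XY. The signal named Vmn1r35 had group means of 7.06, 6.61 and 5.22 in XX supporting cells and between 4.06 and 4.87 in the other 9 groups. It belongs to a family of near-identical genes, and cross-hybridisation of its probes was not tested.

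Gclc and Gclm, the ligase subunits, were higher in germ cells than in supporting cells in every one of the 6 pairs of the same sex and stage. Gclc lay between 9.49 and 10.58 (median 10.26) on the 17 germ cell arrays and between 6.59 and 8.11 (median 7.32) on the 18 supporting cell arrays. The differences ran from 2.32 ± 0.24 in XY cells at TS34 to 3.40 ± 0.24 in XX cells at TS34 (adjusted p of 1.56e-11 or less). Gclm lay between 9.34 and 10.43 (median 9.77) in germ cells and between 7.58 and 8.40 (median 8.05) in supporting cells, with differences from 1.61 ± 0.20 to 2.07 ± 0.20 (adjusted p of 2.09e-08 or less). The cell types did not overlap in either gene, and their group means followed each other closely (r = 0.98 over 12 group means, a description). Neither gene passed the test in any of the 8 stage steps.

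Gclc was also higher in XY than in XX supporting cells at TS24, with 7.39, 8.11 and 7.95 against 7.67, 6.61 and 6.64, groups that overlap through XX replicate 1. The difference was 0.84 ± 0.24 (adjusted p = 0.00872), and the call was lost without XX replicate 2 (0.66, adjusted p = 0.0971), XX replicate 3 (0.67, adjusted p = 0.0854) or XY replicate 2 (0.69, adjusted p = 0.0688), and with all 36 arrays (adjusted p = 0.181). At TS13, within 1 line, the XY values of 7.32, 7.49 and 7.32 lay above the XX values of 6.96, 6.59 and 6.82, but the difference of 0.59 ± 0.24 did not pass the test (adjusted p = 0.237), except after quantile normalization (0.70, adjusted p = 0.0463). At TS34 it was 0.46 ± 0.24 (adjusted p = 0.242). In germ cells at TS34 the Gclc values of XY (9.49, 10.29 and 9.82) lay below those of XX (10.49, 10.57 and 10.37) without overlap. That difference of -0.62 ± 0.24 (adjusted p = 0.0943) passed after quantile normalization (-0.70, adjusted p = 0.0233), after median centring (-0.66, adjusted p = 0.0398) and without XY replicate 2 (-0.83, adjusted p = 0.0359). In Gclm the sex difference in supporting cells lay between -0.12 and 0.21 over the 3 stages and in germ cells between -0.25 and 0.21, none past the test.

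Gss, the synthetase, moved little: its 35 values ran from 7.27 to 8.96. XX germ cells stood above XX supporting cells at TS13 (8.48, 8.23 and 8.07 against 7.92, 7.38 and 7.69, a difference of 0.60 ± 0.22, adjusted p = 0.0351), and XY germ cells stood below XY supporting cells at TS24 (8.05, 7.42 and 7.80 against 8.54, 8.30 and 8.39, a difference of -0.65 ± 0.22, adjusted p = 0.0196). In supporting cells at TS34 the XY values (7.98, 8.13 and 8.30) lay above the XX values (7.43, 7.41 and 7.27) by 0.77 ± 0.22 (adjusted p = 0.0119). All 3 Gss calls depended on single arrays. The first was lost without XX germ replicate 1 (0.49), XX germ replicate 2 (0.62), XX supporting replicate 2 (0.46) or XX supporting replicate 3 (0.61), and after quantile normalization (0.45, adjusted p = 0.0905). The one at TS24 was lost without XY germ replicate 2 (-0.49) or XY supporting replicate 1 (-0.59), and the one at TS34 without XX replicate 3 (0.72) or XY replicate 3 (0.69).

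Gsr, the reductase, was high in germ cells at TS13 and overlapped supporting cells at TS34. XX germ cells had 9.58, 9.75 and 9.86 at TS13, 9.02 and 9.15 at TS24 and 8.52, 8.23 and 8.12 at TS34, and XY germ cells had 9.76, 9.68 and 9.31, then 9.63, 9.11 and 9.40, then 8.44, 9.19 and 8.84. The 18 supporting cell arrays lay between 7.47 and 8.65. Germ cells were higher than supporting cells by 2.16 ± 0.20 in XX at TS13 (adjusted p = 1.19e-12), 1.33 ± 0.23 at TS24 (adjusted p = 5.21e-06) and, without passing the test, 0.21 ± 0.20 at TS34 (adjusted p = 0.511). In XY the differences were 1.76 ± 0.20 (adjusted p = 5.89e-10), 1.01 ± 0.20 (adjusted p = 7.82e-05) and 0.35 ± 0.20 (adjusted p = 0.224).

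Of the single steps of Gsr in germ cells, 1 passed the test, the XX step from TS24 to TS34 (-0.80 ± 0.23, adjusted p = 0.0204). It was lost without XX TS24 replicate 1 (-0.87) or 2 (-0.73), without XX TS34 replicate 2 (-0.77) or 3 (-0.72), after quantile normalization (-0.59, adjusted p = 0.0548) and with all 36 arrays (-0.33, adjusted p = 0.368), where the XX step from TS13 to TS24 passed instead (-1.10, adjusted p = 0.0143). The other 3 germ cell steps were -0.64 ± 0.23 (XX to TS24), -0.20 ± 0.20 (XY to TS24) and -0.56 ± 0.20 (XY to TS34). In supporting cells at TS24, Gsr was higher in XY (8.49, 8.15 and 8.48) than in XX (7.78, 7.97 and 7.50) by 0.62 ± 0.20 (adjusted p = 0.0293), with no overlap. That call was lost without XX replicate 1 (0.63) or 3 (0.50), XY replicate 1 (0.56) or 3 (0.57), and with all 36 arrays (adjusted p = 0.122). The TS24 arrays of XY supporting cells came from another line.

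Gpx4, the lipid peroxide reductase, was among the high values in every group, between 10.18 and 11.70. At TS13 the 6 germ cell arrays (11.30 to 11.50) lay above the 6 supporting cell arrays, which were 10.75, 10.91 and 10.83 in XX and 10.66, 10.56 and 10.18 in XY. The difference was 1.01 ± 0.21 in XY (adjusted p = 1.12e-04) and 0.49 ± 0.21 in XX (adjusted p = 0.0755). The medians of all genes were 0.166 in XY and 0.073 in XX. Over the other settings and single arrays left out, the lowest difference was 0.558 in XY, with the call kept throughout, and 0.13 in XX. In XX germ cells it fell by 0.82 ± 0.24 from TS24 (11.00 and 11.70) to TS34 (10.71, 10.63 and 10.25; adjusted p = 0.0207), without overlap. The call was lost without XX TS24 replicate 2 (-0.47) or XX TS34 replicate 3 (-0.68) and after quantile normalization (-0.59, adjusted p = 0.0514), and the median of all genes in that step was itself -0.153. No XY minus XX difference in Gpx4 passed the test in either cell type.

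**Figure D2:**
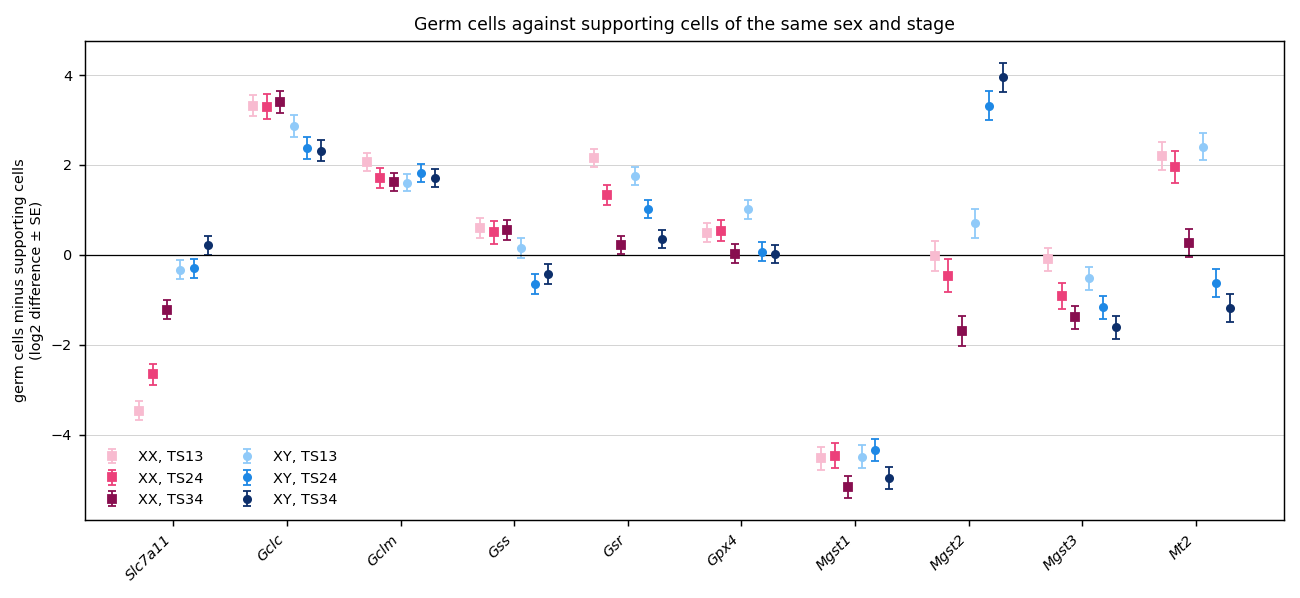
Difference between germ and supporting cells of the same sex and stage (log2, ± SE, vertical axis) for each gene (horizontal axis). Squares are XX pairs and circles XY pairs, darker with stage. The reader should see Gclc and Gclm above 0 and Mgst1 below 0 in all 6 pairs, Slc7a11 far below 0 in XX pairs only, and Mgst2 and Mt2 changing with sex and stage.

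The Mgst genes code for related membrane enzymes, and their levels were arranged differently. Mgst1, a transferase and peroxidase of the endoplasmic reticulum and outer mitochondrial membrane, lay between 9.03 and 10.73 (median 9.94) on the 18 supporting cell arrays and between 4.44 and 6.32 (median 5.21) on the 17 germ cell arrays. The difference between germ and supporting cells was between -4.34 ± 0.25 (XY, TS24) and -5.16 ± 0.25 (XX, TS34), a fold of 20.2 to 35.8, with an adjusted p of 2.30e-18 or less in each of the 6 pairs. The germ cell values were close to the 25th percentiles of the arrays, so the fold may be compressed. Mgst1 passed the test in no stage step and no XY minus XX difference in the fit on 35 arrays. With the left-out library added, the XX germ step from TS24 to TS34 was -1.96 (adjusted p = 0.0291) in place of -0.35 ± 0.28 (adjusted p = 0.479). The nearest was in germ cells at TS34, with 4.65, 6.32 and 5.42 in XY against 5.07, 4.68 and 4.44 in XX (0.73 ± 0.25, adjusted p = 0.0548), overlapping groups. That difference passed after quantile normalization (adjusted p = 0.0365), after median centring (adjusted p = 0.0319), with the filter at the 50th percentile (adjusted p = 0.0496), and without XX replicate 1 (0.90, adjusted p = 0.0275) or XY replicate 1 (1.14, adjusted p = 0.00156).

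The 3 genes most like Mgst1 over the 12 group means were Gja1, which codes for a connexin (r = 0.996), Akr1cl, an aldo-keto reductase gene (r = 0.991), and Cpe, the carboxypeptidase E gene (r = 0.990). Their supporting cell means were between 10.16 and 11.32 and their germ cell means between 5.28 and 7.24. The left-out library also had the Mgst1 level of supporting cells, at 9.91.

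Mgst2, which can make a leukotriene as well as detoxify lipid peroxides, was high in XY germ cells at TS24 and TS34 and nowhere else. XY germ cells had 7.51, 6.80 and 7.84 at TS13, 10.27, 10.20 and 10.35 at TS24 and 10.07, 10.76 and 10.49 at TS34. XX germ cells had 6.22, 7.48 and 7.25 at TS13, 6.53 and 6.91 at TS24 and 6.36, 5.97 and 5.49 at TS34. Sexes overlapped at TS13, with a difference of 0.40 ± 0.33, and were far apart from TS24 on. The XY minus XX difference was 3.55 ± 0.37 at TS24 (11.7-fold) and 4.50 ± 0.33 at TS34 (22.6-fold), and the step of XY germ cells from TS13 to TS24 was 2.89 ± 0.33 (7.42-fold). These values were known when the gene was listed and are given with no test. With the left-out library, whose Mgst2 value was 6.67, the TS24 difference was 3.57. Of 9 germ cell marker genes, 3 were also higher in XY at TS34 (Nanos3 by 1.84, Dnd1 by 0.94 and Pou5f1 by 0.91), where 6.04% of all genes were higher and 4.46% lower. At TS24 0 of them were called (1.96% of all genes). The part of these markers in the Mgst2 difference was not tested.

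In supporting cells Mgst2 lay between 5.88 and 8.19. At TS34 its XX values of 8.19, 7.12 and 7.61 were above the XY values of 6.46, 6.13 and 6.88, the opposite of the germ cells, by a difference of -1.15 ± 0.33 (adjusted p = 0.0118). That call was lost without XX replicate 1 (-0.88, adjusted p = 0.121) or XY replicate 2 (-0.97, adjusted p = 0.0913) and under trended, robust variance moderation (adjusted p = 0.0835). Germ minus supporting cells gave -1.70 in XX at TS34, and 3.32 at TS24 and 3.95 at TS34 in XY, without overlap and as a description, since they rest on the germ cell values that chose the gene. The genes most like Mgst2 over the 12 group means were Usp4 (r = 0.954), Hlf (r = 0.946) and Samd7 (r = 0.942), whose group means spanned less. Usp4, a ubiquitin protease gene, was at 10.46 and 10.53 in XY germ cells at TS24 and TS34 and between 9.53 and 9.91 elsewhere.

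Mgst3 had 6.75 to 8.12 in germ cells and 7.51 to 9.70 in supporting cells. At TS13 the cell types overlapped in both sexes, and neither passed the test (-0.10 ± 0.26 in XX, -0.52 ± 0.26 in XY). The XY difference did pass after quantile normalization and after median centring. At TS34 germ cells were lower, with differences of -1.39 ± 0.26 in XX (adjusted p = 2.46e-05) and -1.61 ± 0.26 in XY (adjusted p = 2.04e-06), with no overlap. At TS24 the differences were -1.17 ± 0.26 in XY (adjusted p = 3.25e-04) and -0.91 ± 0.29 in XX (adjusted p = 0.0141). The XX call at TS24 was lost without XX germ replicate 2 (-0.48), XX supporting replicate 1 (-0.75) or 2 (-0.66), and with all 36 arrays (-0.71, adjusted p = 0.0801). In XY supporting cells Mgst3 rose by 1.16 ± 0.26 from TS13 (8.40, 7.74 and 8.05) to TS24 (9.17, 8.79 and 9.70; adjusted p = 0.00107), a step across mouse lines in which the median of all genes was 0.222. In XX supporting cells, within 1 line, the same step was 0.75 ± 0.26 (adjusted p = 0.128), and it passed the test without XX TS24 replicate 3 (1.17, adjusted p = 0.00425). Between XY and XX supporting cells at TS24, across lines, Mgst3 differed by 0.72 ± 0.26 (adjusted p = 0.0562, limma). That difference passed after median centring, with the filter at the 50th percentile, and without XX replicate 1, XX replicate 2 or XY replicate 2. The closest group means were those of Gpam (r = 0.983), a glycerolipid synthesis gene, Tmem86a (r = 0.972) and Bche (r = 0.970), the butyrylcholinesterase gene.

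**Figure D3:**
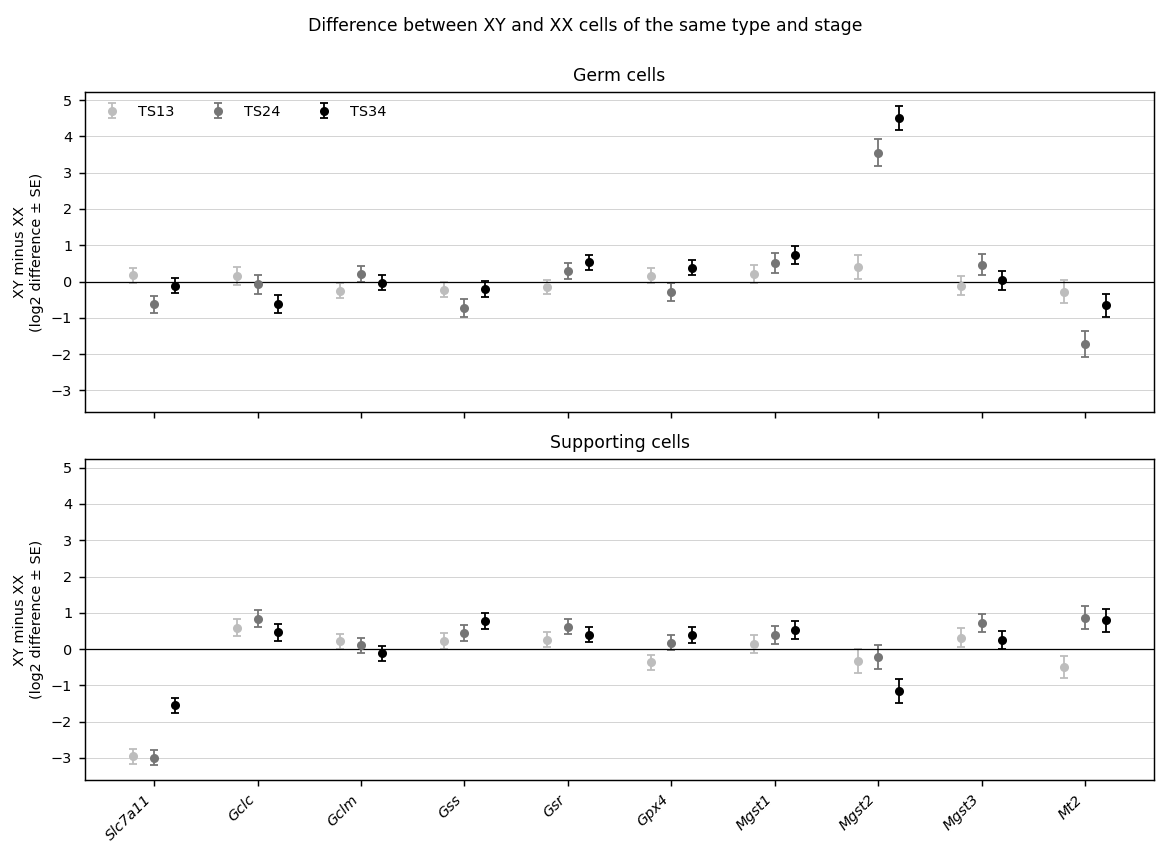
Difference between XY and XX cells (log2, ± SE, vertical axis) for each gene (horizontal axis), germ cells above and supporting cells below, with 1 point per stage. The reader should see Mgst2 at 3.55 and 4.50 in germ cells at TS24 and TS34 and Slc7a11 between -2.99 and -1.55 in supporting cells at all 3 stages.

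Mt2, whose protein holds zinc and other metals through its cysteines, fell over time in germ cells. Whether the XX and XY steps to TS24 differed was not tested. At TS13 germ cells of both sexes had 9.72 to 10.73. XX germ cells had 10.33 and 9.32 at TS24 and 7.87, 7.67 and 7.28 at TS34, and XY germ cells had 7.97, 7.52 and 8.81 at TS24 and 6.68, 7.34 and 6.83 at TS34. All XY values at TS24 lay below the TS13 range, while of the XX values at TS24 1 lay within it and 1 below. The XY step from TS13 to TS24 was -2.02 ± 0.31 (adjusted p = 2.40e-05) and the XX step from TS24 to TS34 was -2.21 ± 0.35 (adjusted p = 1.90e-05), whereas the XX step to TS24 was -0.58 ± 0.35 (adjusted p = 0.536). The XY step from TS24 to TS34 was -1.15 ± 0.31 (adjusted p = 0.0281). It was lost without XY TS24 replicate 1 (-1.22) or 3 (-0.80) or XY TS34 replicate 1 (-1.02) or 3 (-1.09), and under 3 other settings, among them quantile normalization (-1.03, adjusted p = 0.0626).

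At TS24 Mt2 differed between the sexes in germ cells, XY below XX, by -1.72 ± 0.35 (adjusted p = 0.00216). The 2 XX values were 10.33 and 9.32 and the groups did not overlap, but the call was lost without XX replicate 1 (-1.22, adjusted p = 0.133) or XY replicate 2 (-1.43, adjusted p = 0.0506), and with the left-out library added (-0.94, adjusted p = 0.214), whose Mt2 value was 7.48. At TS13 and TS34 the differences were -0.28 ± 0.31 and -0.66 ± 0.31 and did not pass the test. Beside the TS24 difference, 1 of 6 tested stromal genes was lower in XY germ cells (Dcn, -1.24), where 1.46% of all genes were lower. The list means were 6.63 to 7.20 in XX and 6.54 to 6.61 in XY. In supporting cells Mt2 lay between 7.06 and 9.32. Its XY values at TS24 were 9.31, 9.32 and 7.57 against 7.86, 8.09 and 7.64 in XX, a difference of 0.87 ± 0.31 (adjusted p = 0.0499) between overlapping groups that was lost under 6 of 8 other settings and without any of 4 single arrays (XX replicate 1 or 3, XY replicate 1 or 2; 0.58 to 0.87). The rise of XY supporting cells from TS13 (7.13, 8.01 and 7.99) to TS24 was 1.02 ± 0.31 (adjusted p = 0.0166) and was lost without XY TS13 replicate 1 (0.73) or XY TS24 replicate 1 (0.74) or 2 (0.73), and under 4 other settings.

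Against supporting cells, Mt2 was higher in germ cells at TS13 by 2.20 ± 0.31 in XX (adjusted p = 7.40e-08) and 2.41 ± 0.31 in XY (adjusted p = 9.26e-09). At TS24 XX germ cells were still higher, by 1.96 ± 0.35 (adjusted p = 1.10e-05, and 1.17 with an adjusted p of 0.051 with all 36 arrays), and XY germ cells were not (-0.63 ± 0.31, adjusted p = 0.122). At TS34 XY germ cells were lower, with a difference of -1.19 ± 0.31 (adjusted p = 0.00222), and the XX difference was 0.26 ± 0.31. Mt1, another metallothionein gene, passed the test as higher in germ cells in no pair. Its difference was -0.10 ± 0.24 in XX and 0.17 ± 0.24 in XY at TS13, and germ cells were lower at TS34 by differences of -1.67 ± 0.24 (XX, adjusted p = 9.00e-08) and -1.64 ± 0.24 (XY, adjusted p = 1.54e-07). Of 6 metallothionein and zinc genes other than Mt2, 0 were called by limma between XY and XX germ cells at any stage (0, 2 and 0 at an unadjusted p under 0.05). Of all genes, 0.0285%, 1.96% and 10.5% were called in these comparisons from TS13 to TS34. The genes most like Mt2 over the 12 group means were Dok5 (r = 0.935), S100a14 (r = 0.933) and Tagln3 (r = 0.929), each with group means between 5.33 and 7.22.

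The counts of the 10 genes were read against the share of all 17571 genes called in the same comparison. Of XY minus XX differences in germ cells, 0 of 10 were called at TS13 by limma (0.0285% of all genes), where 0 of the 10 genes, and 554 genes in all, lay under an unadjusted p of 0.05, 2 at TS24 (Mgst2 and Mt2; 1.96%) and 1 at TS34 (Mgst2; 10.5%). In supporting cells 1 was called at TS13 (Slc7a11; 3.78%), 4 at TS24 (Slc7a11, Gclc, Gsr and Mt2; 15.3%) and 3 at TS34 (Slc7a11, Mgst2 and Gss; 14.0%). Mgst2 in germ cells was part of what was known when the list was made, so nothing is read from its share of these counts. The Slc7a11 difference was past the threshold at all 3 stages in supporting cells. It rests on the XX supporting values through which alone the gene passed the filter, so nothing is read from its share either.

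Of the stage steps, 0 of 10 were called in XX germ cells to TS24 (1.21% of all genes) and 3 to TS34 (Gsr, Gpx4 and Mt2; 8.88%). In XY germ cells 2 were called to TS24 (Mgst2 and Mt2; 1.50%) and 1 to TS34 (Mt2; 2.73%). In XX supporting cells 0 were called to TS24 (3.37%) and 1 to TS34 (Slc7a11; 0.643%), and in XY supporting cells 2 to TS24 (Mgst3 and Mt2; 16.8%) and 0 to TS34 (1.06%). In the 3 steps with no call, 2, 1 and 0 of the 10 genes had an unadjusted p under 0.05 by limma, against 2096, 2081 and 2408 genes in all. Of the differences between the sex difference at TS34 and that at TS13, 1 was called in supporting cells (Slc7a11; 4.88% of all genes). In germ cells the 1 past the threshold was Mgst2 (3.69%), from which nothing is read.

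Between germ and supporting cells, 7 of 10 were called in XX at TS13 (30.4% of all genes), 7 at TS24 (27.9%) and 6 at TS34 (30.1%), and in XY 6 at TS13 (32.4%), 7 at TS24 (31.9%) and 6 at TS34 (28.9%). Mgst1, Gclc and Gclm were called in all 6. Each array enters several of these comparisons and those of sex and stage, so their counts are not independent of each other. The direction was mixed: 5 higher and 2 lower in germ cells in XX at TS13, 4 and 3 at TS24, and 2 and 4 at TS34, and in XY 5 and 1, 4 and 3, and 3 and 3. The median difference of the 10 genes lay between -0.12 and 0.86 over these comparisons. Whether a sex difference differed between germ and supporting cells was tested in 3 comparisons added after the data were seen. It called Slc7a11 at TS13 (1.66% of all genes), Slc7a11, Gss and Mt2 at TS24 (9.91%), and Slc7a11, Gclc, Gss and Mt2 at TS34 (12.8%). Mgst2 was past the threshold at TS24 and TS34 too. Wherever Mgst2 stands in a count that involves germ cells, the choice of the gene used those values and nothing is read from it. Nor is anything read from Slc7a11 in a count that involves XX supporting cells, the only group through which it passed the filter.

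The cytosolic and other glutathione transferases outside the Mgst family were, where called, higher in XY than in XX supporting cells, the direction opposite to that of Slc7a11. Of 20 measured genes, 4 were higher and 0 lower in XY at TS13, 7 and 0 at TS24, and 6 and 0 at TS34. Of all genes, 3.78%, 15.3% and 14.0% were called in either direction at these stages. The shares higher in XY were 1.84%, 9.75% and 8.24%. The median difference of the list was 0.14, 0.29 and 0.06, against -0.07, 0.04 and -0.01 over all genes. At TS13, within 1 line, Gstm6 was higher by 2.39 ± 0.33 (adjusted p = 7.30e-07), Gstm7 by 1.84 ± 0.23 (adjusted p = 5.34e-08) and Gstm1 by 1.50 ± 0.27 (adjusted p = 1.09e-04). Gstm7 had group means of 7.79, 8.53 and 9.58 in XX supporting cells and 9.62, 11.38 and 10.90 in XY from TS13 to TS34. Gsta4 was higher by 1.38 ± 0.25 at TS24 (adjusted p = 2.10e-05) and 1.59 ± 0.25 at TS34 (adjusted p = 1.54e-06), and at TS13 differed by 0.33 ± 0.25 (adjusted p = 0.9). Genes of the Gstm cluster are near copies of each other, so their probe sets may share signal and are uncertain as single genes.

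**Figure D4:**
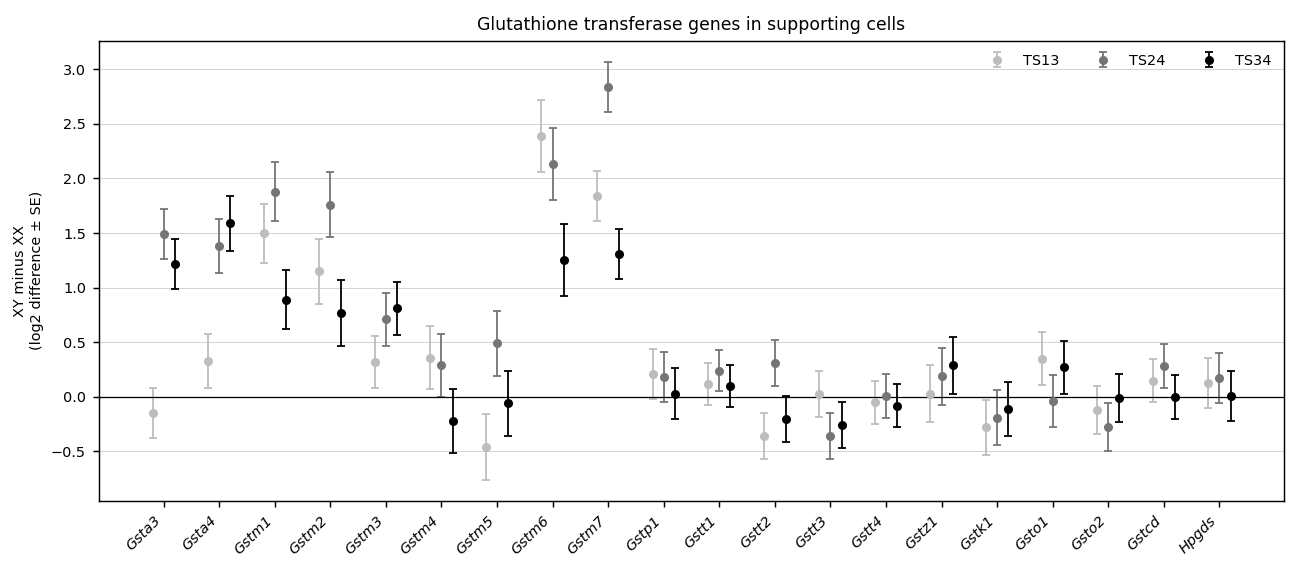
Difference between XY and XX supporting cells (log2, ± SE, vertical axis) for the 20 measured glutathione transferase genes outside the Mgst family (horizontal axis), with 1 point per stage. The reader should see Gstm1, Gstm2, Gstm6 and Gstm7 above 0 at every stage and Gsta3 and Gsta4 at 1.22 to 1.59 at TS24 and TS34 only.

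In germ cells as compared with supporting cells, more of the same 20 transferases were called lower than higher: 4, 7 and 8 were lower in XX and 7, 12 and 10 in XY from TS13 to TS34, against 1 to 3 higher. Over all genes the share lower was between 8.98% (XY, TS13) and 14.9% (XY, TS24) in these comparisons. The list's median difference lay between -0.07 (XX, TS13) and -0.68 (XY, TS24). Gstm3 was higher in germ cells in all 6 pairs (1.87 to 3.56). Of 6 tested glutathione peroxidase genes other than Gpx4, Gpx8, a peroxidase of the endoplasmic reticulum, was lower in germ cells in all 6 pairs (-3.28 to -4.07), like Mgst1, and Gpx1, the cytosolic peroxidase, was higher in 5 pairs (1.01 to 1.38). Of 7 other genes of the Mgst superfamily and leukotriene synthesis, 0 were called by limma between XY and XX germ cells at any stage (0.0285%, 1.96% and 10.5% of all genes from TS13 to TS34), and 0 had an unadjusted p under 0.05. Alox5ap and Ltc4s, which act in the same pathway as Mgst2, are in that list.

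Of 16 measured regulators and targets of NRF2, the factor known to drive Gclc, Gclm, Gsr and Slc7a11, more were lower than higher in germ cells: 7, 4 and 6 lower against 2, 1 and 3 higher in XX from TS13 to TS34, and 5, 7 and 6 lower against 3, 1 and 0 higher in XY. Over all genes the shares higher were 20.1%, 16.5% and 17.2% in XX and 23.5%, 16.9% and 16.8% in XY, and the shares lower were between 8.98% and 14.9%. Me1, the malic enzyme, was lower by differences of -2.44 (XX) and -3.62 (XY) at TS13, and Idh1, isocitrate dehydrogenase, by -2.11 and -2.24. Taldo1, transaldolase, was higher at TS13 by 0.95 (XX) and 1.37 (XY), and Gclc and Gclm were higher too. The list pools targets with regulators such as Keap1 and Bach1, so its counts give no direction of NRF2 activity, which was not tested. The medians of the list were -0.07 in XX and 0.00 in XY at TS13, against 0.07 and 0.17 over all genes. In supporting cells, 2 of the 16 genes were higher and 1 lower in XY at TS24 (15.3% of all genes called), and 2 and 1 at TS34 (14.0%), shares near those of all genes. Me1 was higher in XY at TS24 (1.75 ± 0.22, adjusted p = 1.42e-08) and TS34 (1.82 ± 0.22, adjusted p = 5.42e-09). The lower gene, Tkt, transketolase, differed by -2.22 ± 0.23 at TS24 (adjusted p = 6.08e-11) and -1.51 ± 0.23 at TS34 (adjusted p = 1.17e-06).

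Of 13 measured genes of glutathione supply and breakdown, 4 were higher and 0 lower in XY when germ cells of the sexes were compared at TS34, where 6.04% of all genes were higher and 4.46% lower. The largest were Ggct, an enzyme of the glutathione cycle (0.93 ± 0.22), Slc1a4, an amino acid transporter gene (0.92 ± 0.25, adjusted p = 0.00876), and Slc3a2 (0.85 ± 0.23, adjusted p = 0.00845). The Slc1a4 call was lost without XX replicate 2 or XY replicate 2 (smallest 0.71), and the Slc3a2 call without XX replicate 3 (0.59). In supporting cells at TS34, 1 of these 13 genes was higher in XY (Abcc1, 0.84) and 1 lower, a share near that of all genes (14.0%). The lower one was Cth, which makes cysteine from cystathionine (-1.22 ± 0.26, adjusted p = 3.85e-04). Of 19 thioredoxin, peroxiredoxin and glutaredoxin genes, 1 was called in supporting cells at TS13, a share near that of all genes (3.78%). It was Txnip, which was lower in XY (-1.58 ± 0.26, adjusted p = 3.38e-05). Txnip was also lower at TS24 (-1.33 ± 0.26) and TS34 (-1.42 ± 0.26). Of the 19 genes, 1 was higher and 2 were lower in XY at TS24 (15.3% of all genes called), and 1 and 3 at TS34 (14.0%). The higher gene was Prdx4 at both stages (1.30 and 1.42). Of 10 genes of iron and lipid peroxide handling, 0 were called in supporting cells at TS13 by limma (2 at an unadjusted p under 0.05; 3.78% of all genes called). Acsl4, which puts polyunsaturated fatty acids into lipids, was higher in XY at TS34 (1.56), where 14.0% of all genes were called.

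Marker genes of other cell types were measured beside these results. Between XY and XX supporting cells at TS13, 0 of 6 endothelial, 0 of 5 tested macrophage and 0 of 4 erythroid genes were called by limma (0, 0 and 2 at an unadjusted p under 0.05). Of all genes, 1.84% were higher and 1.94% lower in XY in that comparison. The mean of the erythroid genes lay between 7.09 and 7.15 on XX arrays and between 7.07 and 8.29 on XY arrays. Of 10 supporting cell markers, Sox9 was higher in XY (3.23) and Fst (-3.50), Lhx9 (-1.65) and Irx3 (-1.32) were lower. Of 4 steroidogenic genes Cyp11a1 was lower in XY (-0.97), and of 5 mesonephric genes Emx2 was lower (-0.97). Of 6 tested interstitial and stromal genes, Pdgfra was higher in XY (1.80) and Nr2f2 lower (-1.13), and the mean of the 7 measured genes of that list lay between 7.20 and 7.28 on XX arrays and between 7.22 and 7.29 on XY arrays. At TS34 all 4 measured steroidogenic genes were higher in XY supporting cells, where 8.24% of all genes were higher and 5.74% lower. Their array means were 6.91 to 7.21 in XY against 5.66 to 5.74 in XX. At TS24 the mean of 4 erythroid genes was 7.74 to 8.81 in XY against 6.68 to 7.99 in XX. In the step of XX germ cells from TS24 to TS34, where Gsr, Gpx4 and Mt2 were called, 1.86% of all genes were higher and 7.02% lower. Hbb-y (-2.65) of 4 erythroid, Dcn (-1.31) of 6 stromal and Pecam1 (-1.02) of 6 endothelial genes were lower too. So were Nanos3 (-1.18), Dnd1 (-1.12) and Tfap2c (-1.12) of 9 germ cell genes, Sox9 (-0.78) of 10 supporting and Lhx1 (-0.91) of 5 mesonephric genes. The array means of the erythroid genes were 7.56 to 7.99 at TS24 and 6.45 to 6.99 at TS34, and those of the germ cell genes were 10.21 to 10.22 and 9.59 to 10.05. The part of all these markers in the germ cell results, in the difference of Slc7a11 at TS13 and in those of Gss, Mgst2, Gclc, Gsr and Mt2 at those stages was not tested. As sorted RNA is a pool, fewer cells of a type and less RNA per cell cannot be told apart.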

How the data were processed

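The authors deposited 1 log2 value per probe set and array, made with RMA per the submitters' processing notes. Software and genome build: not given in the sources used here. Of 35557 probe sets on 36 arrays, 21789 had exactly 1 gene symbol in the platform annotation, 1621 had several and 12147 were not listed. Symbols were matched by Entrez identifier to RefSeq names of GRCm38.p6. The identifier was found for 21698 probe sets, whose symbol could change or stay the same, and 91 kept the platform symbol. The medians of the arrays lay between 6.412 and 6.841, and the values were used without further normalization. Arrays have no read depth, and their number limits the precision.

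Of 19938 named genes, those above the 25th percentile of their array on at least 3 arrays were tested (17571 kept, 2367 removed). A model with 1 mean per group was fitted to 35 arrays with limma 3.58.1 in R 4.3.3 (23 residual and 25.96 prior degrees of freedom, no covariates). Two-sided p-values were Benjamini-Hochberg adjusted over all genes tested within each of 25 comparisons and called under 0.05. The last 3 comparisons, of sex differences between cell types, were chosen after seeing the data. The members and lists were chosen with earlier results of these data known, so no p is independent evidence. All 10 members were named. From each pathway list, counts and up to 3 called genes with the largest absolute difference in the comparison discussed were named, and other named list genes were chosen after their values were seen. For Mgst1, Mgst2, Mgst3, Slc7a11 and Mt2 the 3 genes with the highest Pearson r over the 12 group means were named.

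Same-numbered arrays did not pair: over 56 pairs in 20 comparisons their deviations from group means correlated between -0.508 and 0.197, and in 0 comparisons were all pairs over 0.1. The fit was tested on simulated data. Alternatives were all 36 arrays, quantile normalization, median centring, a filter at the 50th percentile, no filter, the mean of a gene's probe sets, trended robust moderation, a replicate block, and leaving out each array. Figures were drawn with matplotlib. The interstitial samples named in the study's design were not analysed here.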

Additional observations from a re-analysis of the deposited data

Results flagged for a closer look

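The sex difference of 4 of the genes (Slc7a11, Gclc, Gss and Mt2) differed between cell types or stages by a test of that difference itself (limma, adjusted over all genes tested). The tests between cell types were chosen after the data were seen. Values are log2 differences of differences. For Mgst2 they are given as description and not counted as tested, since its germ cell values chose the gene: the XY minus XX difference in germ cells was larger at TS34 than at TS13 by 4.10, and larger in germ than in supporting cells by 3.78 at TS24 and 5.65 at TS34.

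For Slc7a11 the sex difference in supporting cells at TS34 minus that at TS13 was 1.41, a smaller deficit of XY cells. The sex difference in germ cells minus that in supporting cells came to 3.14 (TS13), 2.36 (TS24) and 1.44 (TS34), and these 4 Slc7a11 calls held under every alternative and with every single array left out. Outside XX supporting cells the gene lay near the bottom of the array scale. The 4 values therefore largely follow its level in XX supporting cells and are not separate results. As the gene passed the filter only through those cells, neither the calls nor their holding is independent support.

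Gclc gave -1.08 at TS34 and was lost with all 36 arrays and without any of 4 single arrays (XX germ replicate 2, XY germ replicate 1, XX supporting replicate 1 or XY supporting replicate 3; -0.89 to -1.03). Gss gave -1.15 at TS24, lost without XX germ replicate 2 (-0.67), XY germ replicate 2 (-0.98) or XX supporting replicate 3 (-0.92), and -0.98 at TS34, lost with all 36 arrays and without XX germ replicate 1 or 3, XY germ replicate 1 or 2, XX supporting replicate 3 or XY supporting replicate 2 or 3 (-0.83 to -0.98). Mt2 gave -2.59 at TS24 and -1.45 at TS34, the first lost with all 36 arrays (-1.81, adjusted p = 0.0586) and the second likewise, under trended, robust moderation, and without XX germ replicate 1 (-1.32), XY germ replicate 1 (-1.32) or XX supporting replicate 3 (-1.31). Single arrays that stand apart within a group of 3 were not tested for.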

How the results depend on the processing

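Of 250 member differences (10 genes in 25 comparisons), 71 were called and 52 of them held under every alternative and with every single array left out. Those of Mgst2 that involve germ cells are no test. Those of Slc7a11 that involve XX supporting cells rest on the values that passed it through the filter. Called differences were lost under some alternative in 16 cases and with some array left out in 17, while 12 and 18 that were not called became called, and 0 reversed. The 9 calls among stage steps became 5 after quantile normalization, and the 10 calls among differences of sex differences between cell types became 6 with all 36 arrays. With single arrays left out these counts ran from 7 to 10 and from 7 to 11, the 11 calls of XY minus XX from 9 to 13, the 39 calls of germ minus supporting from 38 to 42, and the 2 calls of TS34 minus TS13 from 2 to 3. With the replicate block the 5 counts were 10, 9, 39, 2 and 10, and 1 member call was lost, Mt2 between XY and XX supporting cells at TS24 (adjusted p = 0.0522).

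Counts over all genes moved by more than 1.5 times with all 36 arrays in 11 comparisons. They went from 344 to 767 for XY minus XX in germ cells at TS24 (739 after quantile normalization and 732 after median centring) and from 664 to 397 in supporting cells at TS13. The steps to TS24 went from 213 to 352 in XX germ, 263 to 106 in XY germ and 592 to 296 in XX supporting cells, and the steps to TS34 from 480 to 202 in XY germ, 113 to 20 in XX supporting and 187 to 74 in XY supporting cells. The tests of TS34 against TS13 went from 648 to 286 (germ) and 858 to 527 (supporting), and that between cell types at TS13 from 291 to 121 (442 after quantile normalization). Leaving out single arrays moved 30 such counts.

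Quantile normalization moved the share of called genes that were higher from 89.9% to 59.4% in the XY supporting step to TS24, from 21% to 50.6% in the XX germ step to TS34 and from 72.3% to 49.9% in XY germ minus supporting at TS13, where the median of all genes had been 0.222, -0.153 and 0.166. No called gene of the pathway lists changed sign under quantile normalization or median centring. Values near the bottom of the array scale, as of Slc7a11 outside XX supporting cells and Mgst1 in germ cells, carry compressed differences.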

Other observations

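The library left out of the XX germ cell group at TS24 lay within the range of supporting cells and outside that of germ cells for Mgst1 (9.91), Gclc (7.65) and Gsr (7.69). Its Gclm value of 8.51 lay between the ranges, above 8.40 and below 9.34, and its Mt2 value of 7.48 lay within both. Its Slc7a11 value was 5.71, against a mean of 8.01 in XX supporting cells at TS24 and 5.35 on the other XX germ cell arrays at that stage, and its Pdgfra value was 10.60, above the 6.54 to 9.86 of the supporting cell arrays.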
